A study of Mus musculus with 5 samples.

Results

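The 7 genes of the Fos and Jun family, Fos, Fosb, Fosl1, Fosl2, Jun, Junb and Jund, were taken by gene symbol from the array's annotation, which gave 9 probe sets of the 12488 on the array and 7 genes of 8251 with a symbol of their own. Fos and Junb had 2 probe sets each and the other members 1. RNA came from 5 mouse co-cultures of haematopoietic cells with the stromal line ST2-T, kept for 6 days with dexamethasone and 1,25-dihydroxyvitaminD3, conditions under which osteoclasts, the bone-resorbing cells, can form. The groups were wild-type (Fos+/+) spleen cells, Fos-/- spleen cells, Fos+/+ bone marrow cells and Fos-/- spleen cells that had received either a deltaNFAT virus or, as its control, a virus with green fluorescent protein (GFP). The sources used here do not give strain, age, the Fos allele, the content of the deltaNFAT virus or the virus doses. Each group had 1 array, so no value below has a replicate error and no test was possible.

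The proteins of this family pair through a leucine zipper to form the transcription factor AP-1. Fos proteins must pair with a Jun protein to bind DNA, whereas Jun proteins can also pair with each other. In the osteoclast lineage Fos is required, since mice without it form no osteoclasts and have dense bones, and Fosl1 is known as a Fos target that can stand in for Fos there. The stromal cells in every dish come from one line with its own Fos gene, and all dishes were harvested whole, so the genotype applies to the haematopoietic cells only. In such mixed RNA, fewer cells of a type and less RNA per cell cannot be told apart.

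Several of these genes are themselves controlled by AP-1 and by related factors of the CREB and ATF family, so their upstream sequences are shown for the members that hold a binding motif of these factors. Upstream sequence from RefSeq (GRCm38.p6) was found for 6 of the 7 members, and 250 bases before each annotated start were searched on both strands. The cAMP response element core TGACG was present upstream of 3 of the 6 members, Fos, Fosb and Junb, against 17.8% of 32851 such regions in the genome. The element TGACATCA, through which Jun is known to activate its own gene, was present upstream of Jun and in 2.93% of regions. The full AP-1 site TGACTCA (4.46% of regions), the full element TGACGTCA (1.55%) and the NFAT core GGAAAA (20.4%) matched in 0 of the 6 regions searched, which says only that these letters are not in this window. No TGACG match overlapped another motif searched. The 120 bases before the start are given below, read along the gene's strand, with TGACG or TGACATCA in capitals.
Fos (chr12:85473770-85473889, plus strand): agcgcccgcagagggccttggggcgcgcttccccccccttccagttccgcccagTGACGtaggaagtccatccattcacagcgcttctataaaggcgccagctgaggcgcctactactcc
Fosb (chr7:19310046-19310165, minus strand): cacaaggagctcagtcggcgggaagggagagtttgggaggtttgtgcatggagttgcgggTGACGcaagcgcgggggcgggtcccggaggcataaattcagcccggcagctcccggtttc
Jun (chr4:95052223-95052342, minus strand): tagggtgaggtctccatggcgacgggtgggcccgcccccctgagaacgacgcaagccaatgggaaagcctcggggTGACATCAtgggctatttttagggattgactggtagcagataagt
Junb (chr8:84978749-84978868, minus strand): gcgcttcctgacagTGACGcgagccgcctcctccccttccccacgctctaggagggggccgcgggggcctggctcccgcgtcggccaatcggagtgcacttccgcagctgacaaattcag
In Fos the capitals lie 66 to 62 bases before the start and in Fosb 60 to 56 bases before it. In Jun they lie 45 to 38 bases and in Junb 106 to 102 bases before the start. A second TGACG of Fos, 129 to 125 bases before the start, falls outside the stretch shown.

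The values are intensities on a linear scale, and those of different probe sets cannot be set against each other. Values under a floor of 19.8, the 40th percentile of all values, were set to it before ratios were taken. A gene was called higher or lower when 2 arrays differed at least 2-fold and the brighter one reached 39.6. About 1 in 5 values of an array lay at or below 0. The 1st percentile was -133 in Fos+/+ bone marrow and ran from -91.5 to -77.6 in the other arrays. The size of that percentile, with a median of 90.7, is used below as a second, stricter floor and named the noise floor. In the bone marrow array the percentile itself is larger in size than this floor. Fos, Fosb, Junb and Jund exceeded the noise floor in all 5 arrays, but Fosb only just with GFP, at 91.2, and with deltaNFAT, at 91.4. The GFP array's own 1st percentile is -91.5. Fosl1 and Fosl2 exceeded the noise floor in 0 of 5 and Jun in 2 of 5. Statements on these 3 genes, and on Fosb in the virus arrays, thus rest on weak signal.

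**Figure D1:**
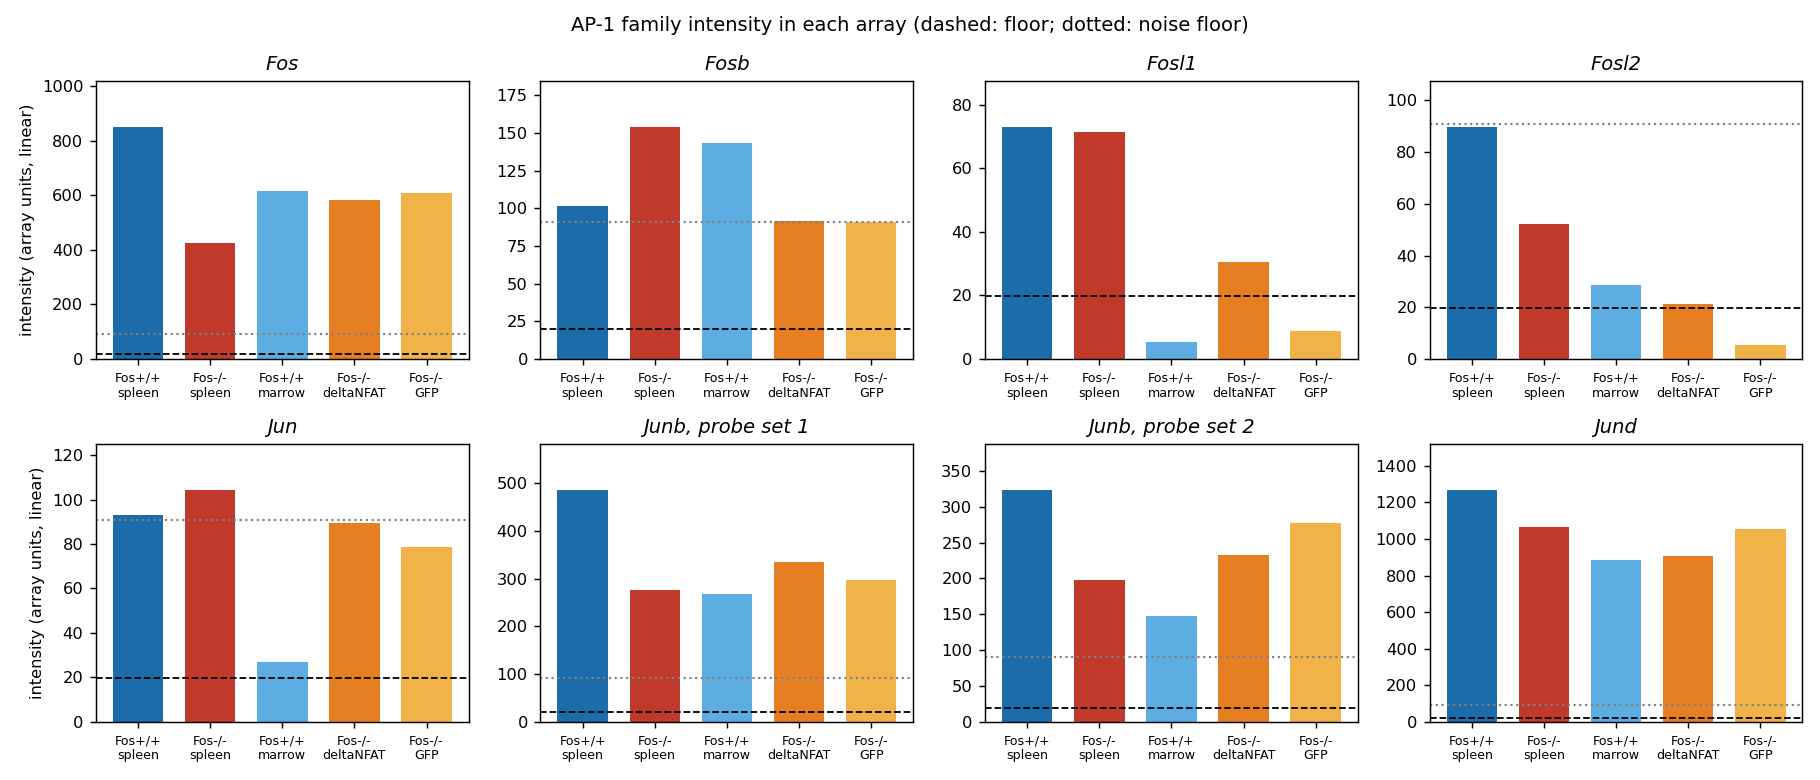
Intensity (linear array units, y axis) of 8 AP-1 probe sets in each of the 5 arrays (x axis), 1 bar per array, with the floor of 19.8 dashed and the noise floor of 90.7 dotted (above the axis range for Fosl1). Fos and both Junb probe sets are highest in Fos+/+ spleen, Fosl1 and Fosl2 stand out in the uninfected spleen arrays, and Jun is low in Fos+/+ bone marrow at 27.0.

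Fos RNA was present in all 5 co-cultures, those with Fos-/- cells included. From high to low, its intensity was 848 for Fos+/+ spleen, 614 for Fos+/+ bone marrow, 607 for GFP virus, 581 for deltaNFAT virus and 426 for Fos-/- spleen without virus. The Fos+/+ arrays were the highest in that order, but bone marrow and GFP differed by only 1.01-fold. Fos-/- spleen without virus held 50.2% of the Fos+/+ spleen value, a 1.99-fold difference that lay just under the 2-fold rule and became 1.97-fold after quantile normalization. With GFP virus the Fos-/- culture read 71.5% and with deltaNFAT 68.5% of Fos+/+ spleen. The second Fos probe set stayed between 5.70 and 14.7, under the floor in all 5 arrays. The sources used here do not place these probes relative to the disrupted part of the gene, and the values do not check the genotype.

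No family member reached 2-fold between the uninfected spleen cultures, a count near the background in so few genes, and Fos itself missed it narrowly at 1.99-fold. Of the 7 members, all bright enough to be called, none was called either way between the 2 uninfected spleen cultures (0 higher, 0 lower), where 6.48% of 4997 genes were called higher with Fos and 6.42% lower. The members' median log2 ratio was 0.25, beside -0.03 over all genes tested. None of the other 6 members was called higher in the Fos-/- culture. The nearest was Fosb.

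Among the Fos relatives, Fosb was the one that read higher without Fos. Fosb, like Fos an immediate early gene, read 101 in Fos+/+ spleen, 154 in Fos-/- spleen, 143 in Fos+/+ bone marrow, 91.4 with deltaNFAT and 91.2 with GFP. It was 1.52-fold higher in the Fos-/- than in the uninfected Fos+/+ culture, a difference that 14.9% of genes tested reached or passed in the same direction. Both virus arrays of the same genotype read lower than either uninfected spleen array, so the higher value was not shared by the 3 Fos-/- cultures. With GFP virus Fosb was 1.69-fold lower than without virus, again short of 2-fold.

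Fosl1, which encodes Fra-1, did not differ between the uninfected spleen cultures. It read 72.9 in Fos+/+ spleen and 71.4 in Fos-/- spleen, a ratio of 1.02. In Fos+/+ bone marrow it read 5.50, with deltaNFAT 30.5 and with GFP 8.90. The bone marrow and GFP arrays thus lay under the floor, and the deltaNFAT array just above it. Fosl1 was at least 3.68-fold lower in Fos+/+ bone marrow than in Fos+/+ spleen and at least 3.61-fold lower with GFP virus than without virus, both at the floor of 19.8. At a floor of 65.1 these Fosl1 folds were 1.12 and 1.10, and at 90.7, above all its values, there was no difference left to measure.

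Fosl2, which encodes Fra-2, followed a similar order. It read 89.6 in Fos+/+ spleen, 52.2 in Fos-/- spleen, 28.6 in Fos+/+ bone marrow, 21.4 with deltaNFAT and 5.50 with GFP. Fos+/+ spleen was 1.72-fold above Fos-/- spleen and 3.13-fold above Fos+/+ bone marrow. With GFP virus it lay, at the floor of 19.8, at least 2.64-fold below the uninfected Fos-/- culture. At a floor of 65.1 the bone marrow fold was 1.38 and the GFP pair lay under the floor, as did all Fosl2 values at 90.7. Fosl1 and Fosl2 both had each uninfected spleen array above each of the other 3 arrays, by 2.34-fold and 1.83-fold at the least, as did Jun and Jund by 1.04-fold and 1.01-fold. That order held for 19.3% of 5567 genes bright in at least 1 array, and with a 2-fold gap, as in Fosl1, for 0.467%. Both shares are over bright and dim genes together, and genes as dim as Fosl1 were not counted apart. Fosl1 exceeded 90.7 in no array, so the 0.467% does not show how rare such a gap is among genes near the noise. The order was looked at after the values were seen, and infection is mixed with the tissue of origin in it.

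Jun read alike in the spleen cultures and low in bone marrow. Jun, the main partner of Fos, read 93.2 in Fos+/+ spleen, 104 in Fos-/- spleen, 89.4 with deltaNFAT, 78.5 with GFP and 27.0 in Fos+/+ bone marrow. The 4 spleen arrays lay close together, with Fos-/- 1.12-fold above Fos+/+, and bone marrow stood apart below them. Jun was 3.45-fold lower in bone marrow than in Fos+/+ spleen and 2.91-fold lower than with GFP virus, both within 2-fold at floors of 65.1 and 90.7.

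Junb, a weaker activator than Jun, was highest in Fos+/+ spleen in both of its probe sets. The brighter one read 486 in Fos+/+ spleen, 277 in Fos-/- spleen, 268 in Fos+/+ bone marrow, 334 with deltaNFAT and 298 with GFP. The other read 323, 198, 148, 233 and 277 in the same order of arrays. Fos+/+ over Fos-/- spleen was 1.76-fold in the first and 1.63-fold in the second, so they gave the same direction. Bone marrow was the lowest array in both, 1.82-fold and 2.18-fold under Fos+/+ spleen, and only the dimmer probe set passed 2-fold. They differed on the virus arrays, where deltaNFAT over GFP was a log2 ratio of 0.17 in one and -0.25 in the other.

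Jund, the Jun protein gene known for steady expression in resting cells, varied least. It read 1268 in Fos+/+ spleen, 1068 in Fos-/- spleen, 1057 with GFP, 910 with deltaNFAT and 887 in Fos+/+ bone marrow. The highest array was 1.43-fold above the lowest, the smallest range of the 7 members. Of the 7 members 4 had their lowest value in bone marrow, Jun, Junb, Jund and Fosl1, as did 19.0% of the 5567 genes. Fos+/+ spleen was the highest array for 5 of the 7 members, Fos, Fosl1, Fosl2, Junb and Jund, and for 24.6% of all these genes.

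**Figure D2:**
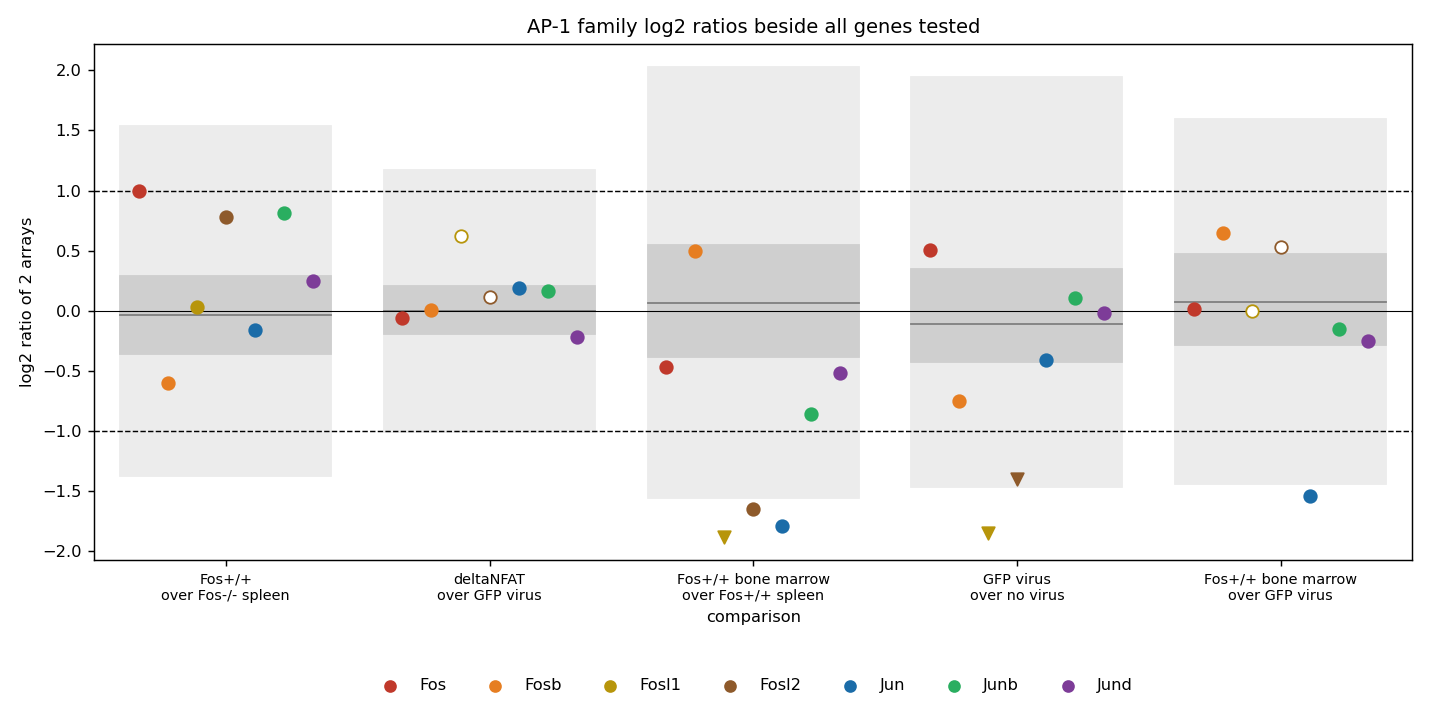
Log2 ratio of 2 arrays (y axis) for the 7 members in 5 comparisons (x axis), with the middle 95% (light grey), the middle 50% (dark grey) and the median (line) of all genes tested, and 2-fold dashed. Filled points are bright enough to be called, open points are not, and triangles are bounds; of the brightest probe sets shown, only those of Fosl1, Fosl2 and Jun pass 2-fold, all downward.

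With deltaNFAT against GFP virus no member was called, a count near the background in so few genes. Of the 5 members bright enough, 0 were higher and 0 lower, where 3.54% of 5032 genes were called higher and 2.58% lower, and the median log2 ratio was 0.00 for the members and -0.00 for all genes tested. Fos was 1.04-fold lower, Jun 1.14-fold higher, Junb 1.12-fold higher, Jund 1.16-fold lower, and Fosb had a ratio of 1.00. Fosl1 at 30.5 against 8.90 and Fosl2 at 21.4 against 5.50 were too dim for a call, and both were called higher only when the floor was lowered to 7.40. Nfatc1, the NFAT gene that drives osteoclast formation downstream of Fos, read 82.7 with deltaNFAT and 23.4 with GFP, beside 751 in Fos+/+ spleen.

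Of the 5 pairs of arrays compared, bone marrow against spleen had the most members called at the floor of 19.8. Between the Fos+/+ cultures 3 of 7 members were called lower in bone marrow, Fosl1, Fosl2 and Jun, and 0 higher, where 7.18% of 5291 genes were called lower and 13.2% higher. The members' median log2 ratio was -0.86, beside 0.06 for all genes tested. Fos was 1.38-fold lower, Jund 1.43-fold lower and Fosb 1.41-fold higher. In the dimmer brightness range, 39.6 to 79.2 in the brighter array, where Fosl1 lies, 11.5% of 1217 genes were called lower. At floors of 65.1 and 90.7 none of the 3 was called. The bone marrow array also had the 1st percentile farthest below 0, at -133.

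GFP virus against no virus in Fos-/- spleen gave 2 members lower, Fosl1 and Fosl2, and 0 higher, where 7.06% of 5113 genes were called lower and 10.3% higher. Both members lie in the range of 39.6 to 79.2, where 13.4% of 1177 genes were called lower, and neither was called at the floors of 65.1 and 90.7. Fos read 1.42-fold higher with GFP virus, Junb 1.08-fold higher and Jund 1.01-fold lower. This comparison shares the array without virus with Fos+/+ over Fos-/- spleen. Bone marrow against GFP, a contrast of genotype that also differs in tissue and virus, called only Jun, lower, of 5 members bright enough, where 5.97% of 5257 genes were called lower and 9.23% higher.

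**Figure D3:**
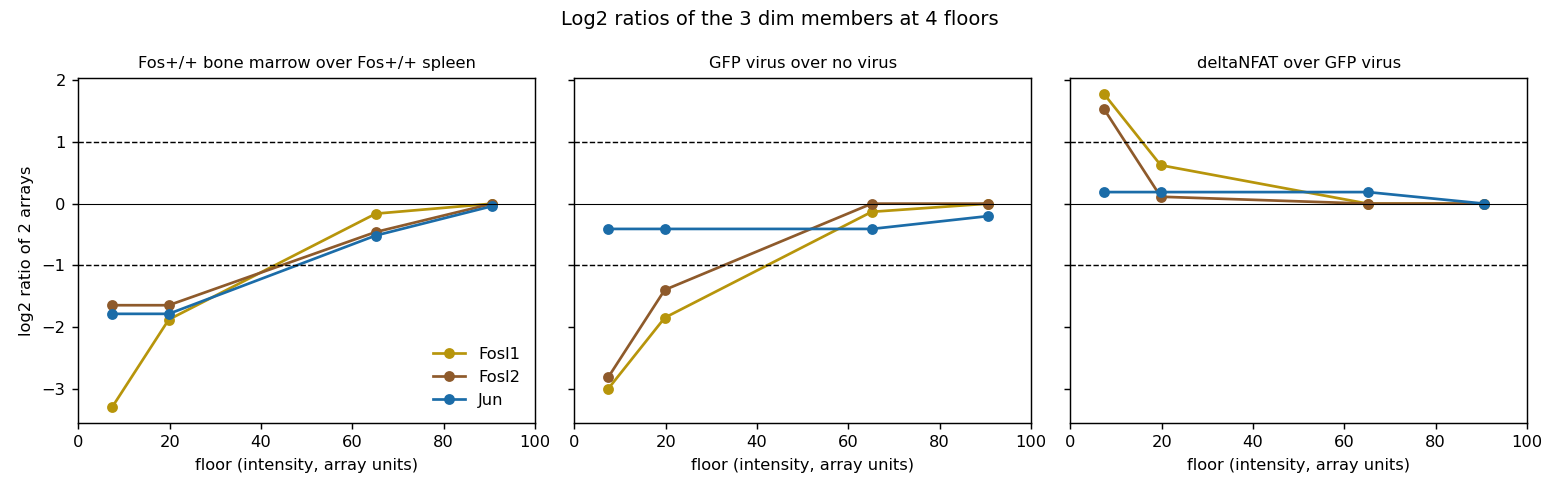
Log2 ratio of 2 arrays (y axis) of Fosl1, Fosl2 and Jun at floors of 7.40, 19.8, 65.1 and 90.7 (x axis, intensity) in 3 comparisons, with 2-fold dashed and lines joining the 4 floors of a gene. The ratios past 2-fold at 19.8 fall inside it at 65.1.

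Cell type markers moved with these arrays. The summed intensity of 14 osteoclast markers was 17461 in Fos+/+ spleen, 12851 in Fos+/+ bone marrow, 4486 with deltaNFAT, 2606 in Fos-/- spleen and 2217 with GFP, with Src under the floor throughout. The 16 macrophage markers, all measured, summed to 13110 in Fos+/+ spleen and between 16240 and 21826 elsewhere. The 12 neutrophil markers summed to 1423 in Fos+/+ spleen, 3269 in Fos-/- spleen, 9890 in Fos+/+ bone marrow, 4834 with deltaNFAT and 7029 with GFP, with Cxcr2 under the floor throughout. Of these markers 10 were bright enough in bone marrow against Fos+/+ spleen, and 10 were called higher in bone marrow, beside 13.2% of all genes. In the same pair Fosl1, Fosl2 and Jun were lower. The 18 stromal fibroblast markers summed to between 15400 and 18435, with Thy1 under the floor, but single markers differed more. Of 15 stromal markers bright enough, 1 was called higher and 2 lower in Fos+/+ than in the uninfected Fos-/- culture, beside 6.48% and 6.42% of all genes. The higher one, Dcn, read 320 in Fos+/+ spleen, 14.1 in Fos-/- spleen, 321 in bone marrow, 24.9 with deltaNFAT and 11.3 with GFP. The 2 lower were Vcam1 and Cdh11. In bone marrow against Fos+/+ spleen 3 of 16 were higher and 0 lower, beside 13.2% and 7.18%. In a list so short these counts are near the shares of all genes. With deltaNFAT against GFP 0 of 13 were higher and 2 lower, beside 3.54% and 2.58% of all genes. GFP against no virus gave 0 of 14 higher and 1 lower, beside 10.3% and 7.06%. Bone marrow against GFP gave 2 of 16 higher and 0 lower, beside 9.23% and 5.97%. Of 7 T cell markers 6 were under the floor in all arrays, as were 2 of 6 B cell and 2 of 4 erythroid markers. The part of cell composition in the family's values was not tested.

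**Figure D4:**
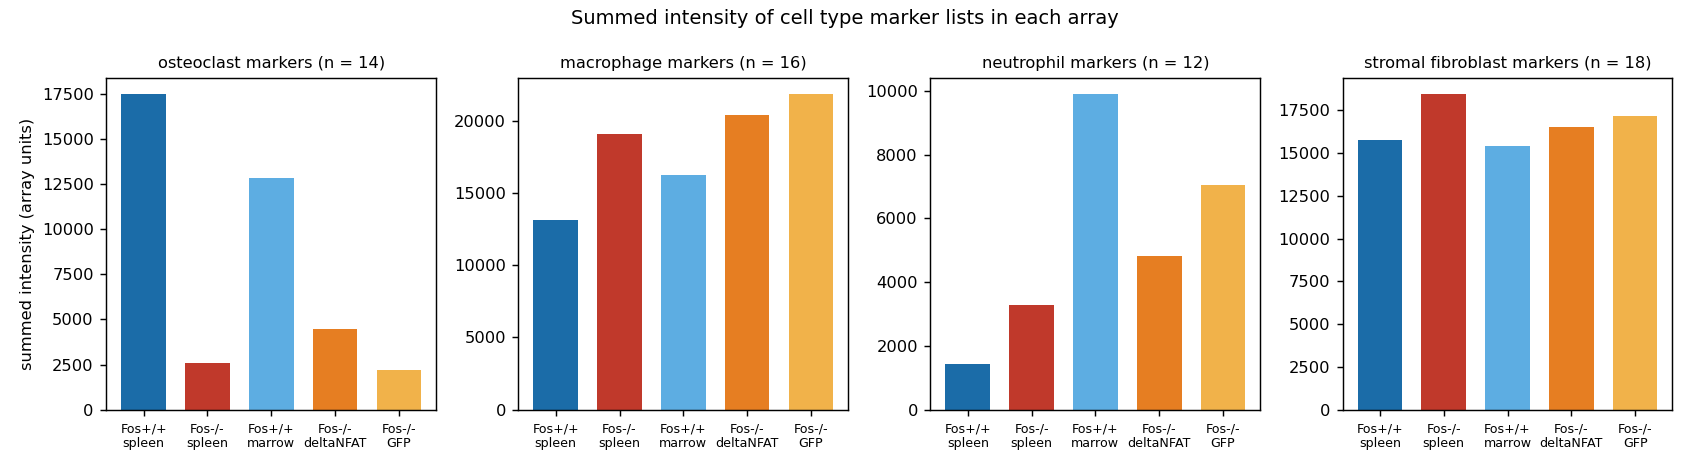
Summed intensity (array units, y axis) of osteoclast, macrophage, neutrophil and stromal fibroblast markers in each of the 5 arrays (x axis), 1 bar per array, with the number of genes in each panel's title. Osteoclast markers are highest in the Fos+/+ arrays at 17461 and 12851, and the stromal sums lie between 15400 and 18435.

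Factors that pair with Fos or Jun proteins or bind related sites gave few calls, of the order that the share over all genes gives in lists so short. Of 22 measured genes for leucine zipper factors of the ATF, BATF, MAF, CREB and CEBP families, 13 were bright enough in Fos+/+ against Fos-/- spleen and 0 were called, beside 6.48% of all genes higher and 6.42% lower (median log2 ratio -0.16). With deltaNFAT against GFP 0 of 15 were called (median -0.09), and in bone marrow against GFP 0 of 15 (-0.23). In bone marrow against spleen 2 of 16 were higher, beside 13.2% of all genes, and 0 lower (0.30). Atf2, a partner of Jun, read 33.2 in Fos+/+ spleen, 6.50 in Fos-/- spleen, 121 in bone marrow, 142 with deltaNFAT and 151 with GFP. It was 3.63-fold higher in bone marrow than in Fos+/+ spleen, and, at the floor of 19.8, at least 7.64-fold higher with GFP than without virus. At a floor of 65.1 these Atf2 folds were 1.85 and 2.32, and at 90.7 they were 1.33 and 1.67. Bach1, a repressor that pairs with MAF proteins, was 2.78-fold higher in bone marrow and 2.58-fold higher with GFP. GFP against no virus had 3 of 15 higher, Ddit3 being the third, beside 10.3% of all genes, and 0 lower (median -0.07). The bone marrow calls of Atf2 and Bach1 and the GFP call of Bach1 were lost in the mean of their probe sets, and 0 of the list were called at the floor of 90.7. A call there needs 2 times that floor in the brighter array, which Atf2 and Bach1 reach in no array.

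Kinases and factors that switch on AP-1 genes were called at shares near those of all genes. Of the 17 measured members of this MAP kinase list, 0 of 12 bright enough were called in Fos+/+ against Fos-/- spleen (median log2 ratio 0.30), 0 of 14 with deltaNFAT against GFP (0.07) and 0 of 15 in bone marrow against GFP (0.32). In bone marrow against spleen 2 of 15 were higher and 1 lower (0.11), and with GFP against no virus 2 of 14 higher and 1 lower (0.18), none of them at the floor of 90.7. All genes were called higher at 13.2% and lower at 7.18% in the first of these pairs and at 10.3% and 7.06% in the second, so these counts are no result about the list. Map3k7, which activates JNK and NF-kB pathways, was one of the higher genes in both. Map2k4, the kinase that activates JNK, was 3.98-fold higher in bone marrow. Elk1, a factor that acts at the Fos promoter, was 2.11-fold lower in bone marrow and 2.25-fold lower with GFP. Map3k1 was 2.15-fold higher with GFP but not when its probe sets were averaged or suffixed ones left out. Map2k4, Elk1 and Map3k1 reach 2 times the floor of 90.7 in no array, so they could not be called there.

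Other immediate early genes, which like Fos are switched on within minutes of a stimulus, gave 1 call upward and 2 downward among 25 bright enough in Fos+/+ against Fos-/- spleen (median log2 ratio 0.03), near the 6.48% and 6.42% of all genes. The phosphatase gene Dusp2 read 118 against 46.7 and was 2.52-fold higher. Klf4, a zinc finger factor, read 64.5 against 165 and was 2.56-fold lower, though not with its probe sets averaged, and the other lower gene was the nuclear receptor Nr4a1. At the floor of 90.7 none of these 3 was called, but Dusp2 and Klf4 could not be, as a call needs 2 times the floor in the brighter array. With deltaNFAT 0 of 24 were called (median 0.01), beside 3.54% of all genes higher and 2.58% lower. In bone marrow against spleen 2 of 24 were higher and 1 lower (0.00), beside 13.2% and 7.18% of all genes. Egr1, a zinc finger factor induced with Fos, read 263 in Fos+/+ spleen, 171 in Fos-/- spleen, 90.4 in bone marrow, 410 with deltaNFAT and 406 with GFP. It was 2.91-fold lower in bone marrow than in spleen and 2.38-fold higher with GFP than without virus, both lost in the mean of its probe sets. Ier3 was 2.36-fold and Klf4 2.25-fold higher in bone marrow, Klf4 again not in the mean of its probe sets. Egr1 was the 1 call, upward, of 25 with GFP against no virus (median 0.12), beside 10.3% of all genes higher. Against GFP, bone marrow had 1 of 25 higher and 4 lower (-0.22), beside 9.23% and 5.97% of all genes, with Egr1 4.49-fold, Ccn1 2.34-fold and Ier2 2.12-fold lower, Gadd45b also lower, and Dusp2 2.57-fold higher.

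Of genes known as AP-1 targets, 5 of 19 were higher and 0 lower in Fos+/+ against Fos-/- spleen (median log2 ratio 0.20), beside 6.48% and 6.42% of all genes. The list was chosen with earlier results of these data known. The gelatinase Mmp9, also an osteoclast marker here, read 3759 against 1047 and was 3.59-fold higher. The membrane-bound protease Mmp14 was 2.09-fold higher, the membrane linker ezrin, Ezr, 2.10-fold and, at the floor of 19.8, the adhesion receptor Cd44 at least 4.82-fold and the methyltransferase Dnmt1 at least 2.22-fold. At a floor of 65.1 Cd44 was 1.47-fold higher and Dnmt1, at 44.0, lay under the floor. Cd44 was not called with its probe sets averaged, and 3 of the list were called at floors of 65.1 and 90.7. With deltaNFAT against GFP 4 of 16 were higher and 0 lower (median 0.54), Mmp3, Mmp13, Ccl2 and Mt2, beside 3.54% and 2.58% of all genes. Mmp3 read 148 with deltaNFAT and 9.30 with GFP, the latter under the floor, so its fold of at least 7.48 depends on the floor of 19.8. Mmp13 was 7.19-fold and Mt2 2.86-fold higher. In bone marrow against spleen 0 of 19 were higher and 3 lower (-0.43), beside 13.2% and 7.18% of all genes, and 2 of these 3 are the members Jun and Fosl1, the other being Dnmt1. GFP against no virus had 2 of 16 higher and 3 lower (-0.48), beside 10.3% and 7.06% of all genes, the latter being Fosl1, Itgax and Mt2, with Mt2 3.44-fold lower and Mmp13 2.76-fold higher. Bone marrow against GFP had 5 of 17 higher and 2 lower (0.55), beside 9.23% and 5.97% of all genes, Jun again being one of the lower genes, with Mmp9 2.95-fold and Mmp14 2.15-fold higher and Ccl2 5.08-fold lower.

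The genes whose 5-array pattern was most like that of a member were found by the root mean square difference between log2 values, each gene centred on its own mean. For Fos these were Erdr1 (0.04), Mrpl35 (0.06) and Umpk-ps (0.10) among 4799 genes above the floor in all arrays. Erdr1 read 1086 in Fos+/+ spleen, 533 in Fos-/- spleen, 781 in bone marrow, 785 with deltaNFAT and 787 with GFP, the same step between the spleen cultures as Fos. For Junb they were Ss18l2 (0.05), Sox3 (0.06) and Hebp1 (0.07), for Jund Rnpepl1 (0.02), Cct7 (0.04) and Ndufa2 (0.05), and for Fosb Abhd14a (0.08), Gtpbp1 (0.08) and Abhd16a (0.09). Members that varied at least 2-fold were compared with genes that also did. Jun was nearest to Pik3r2 (0.10), Rax (0.13) and Pitx1 (0.15) of 1781 genes, and Pitx1 read 35.1 in bone marrow against 142 to 159 in the other arrays. Fosl2 was nearest to Atp5d (0.15), Agpat1 (0.21) and Elk1 (0.22) of 1782 genes. Fosl1, with 2 arrays at the floor, was nearest to Gfra2 (0.25), Snapc2 (0.26) and Cox4i1 (0.26). Elk1 also belongs to the MAP kinase list above.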

How the data were processed

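RNA of 5 co-cultures was measured on 1 one-colour array each. The values deposited by the authors are linear intensities, 1 for each probe set of an array; the sources used here do not give the software or steps behind them. The deposited values had a mean without the lowest and highest 2% of 100.1 in every array, and 20.3 to 22.4% of an array's values were at or below 0. Each array was rescaled to an equal trimmed mean, values were set to at least the floor, and log2 was taken (Python 3.11.15, pandas 2.3.3). The platform annotation gave 10855 probe sets 1 symbol, 396 several and 1237 none; only the first were named, and a gene was represented by its brightest probe set. With 1 array per group there is no test, and the number of arrays limits the precision.

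Named genes were all members, Nfatc1, up to 4 called genes per list and comparison with the brighter array at 79.2 or more, and the 3 genes most alike in pattern. Dnmt1, Ddit3, Map3k7, Nr4a1, Gadd45b, Itgax, Dcn, Vcam1 and Cdh11 were added after their values were seen. Members and lists were chosen with earlier results of these data known. The calling procedure was tested on simulated data, with changes placed only in genes at 79.2 or more. That test does not cover dimmer genes, and its simulated noise did not reach as far below 0 as the values of these arrays do. Alternatives were no rescaling, quantile normalization, other floors, no brightness filter, other uses of probe sets and other fold thresholds.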

Additional observations from a re-analysis of the deposited data

How the results depend on the processing

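No paired analysis was possible because each group has 1 array. The counts of members called kept their value in all 5 comparisons with the values as deposited, after quantile normalization and without the brightness filter. So did those in the mean of probe sets and with unsuffixed probe sets, the last without Junb, whose probe sets are all suffixed. Except for quantile normalization, these settings could hardly change a count. A 2-fold ratio of floored values already needs 39.6 in the brighter array, and the deposited trimmed means were nearly equal. The called members Fosl1, Fosl2 and Jun have 1 unsuffixed probe set each, so the probe set settings left their values alone. At the floors of 65.1 and 90.7 the counts fell to 0 from 3 in bone marrow over spleen, from 2 in GFP over no virus and from 1 in bone marrow over GFP, since these floors lie at or near the brighter values themselves. At the floor of 7.40 there were 2 called in deltaNFAT over GFP (Fosl1 and Fosl2) and 2 in bone marrow over GFP (Fosl2 and Jun). With a 1.5-fold rule 4 were called in Fos+/+ over Fos-/- spleen (Fos, Fosl2 and Junb higher, Fosb lower), 4 in bone marrow over spleen (Junb added), 3 in GFP over no virus (Fosb added) and 2 in bone marrow over GFP (Fosb and Jun). With a 3-fold rule 1 was called in GFP over no virus (Fosl1) and 0 in bone marrow over GFP. Of 345 single member ratios under the alternatives, 319 kept their call, or lack of one, without a change of sign. Some of these had no direction left, having fallen to 0 at the floors of 65.1 and 90.7. Another 2 changed sign without being called, Fosb and Junb in deltaNFAT over GFP. Of the 33 calls of named list genes 7 held under every alternative, 7 were lost at the floor of 65.1 and 15 at 90.7, and 0 reversed. Some of these losses were fixed in advance, since a call needs 2 times the floor in the brighter array and the dimmer genes do not reach it. Signal over background is the limit for Fosl1, Fosl2 and Jun, whose highest values are 72.9, 89.6 and 104. It also limits Fosb in the virus arrays, at 91.2 with GFP and 91.4 with deltaNFAT.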
